A study of Homo sapiens with 8 samples.

Results

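WNT proteins are secreted, lipid-modified signals that bind frizzled receptors together with the co-receptors LRP5 and LRP6. Binding disables the destruction complex, in which AXIN1 and AXIN2 are scaffolds, so that β-catenin (CTNNB1) accumulates and enters the nucleus to act with the DNA-binding factors LEF1, TCF7, TCF7L1 and TCF7L2. Secreted frizzled-related proteins (SFRP) and WIF1 capture WNT outside the cell. Several of the Dickkopf proteins (DKK) act on LRP5 and LRP6, and the ubiquitin ligases RNF43 and ZNRF3 remove frizzled receptors from the surface. The pathway is known for its part in keeping pluripotent cells undifferentiated and in patterning the early neural tube, where retinoic acid (RA) acts as well.

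The genes described here are the WNT ligands, their receptors and co-receptors, their secreted inhibitors and the first steps of the pathway in the cytoplasm and the nucleus. They were taken by gene symbol: WNT followed by a digit, FZD1 to FZD10, SFRP1 to SFRP5, DKK1 to DKK4, and 15 further named components. The array's annotation lists 52 of them, 19 WNT genes, 10 frizzled genes, 4 SFRP genes (SFRP1, SFRP2, SFRP4 and SFRP5), 4 DKK genes and the 15 others, and all 52 were among the 18732 genes measured. The rule uses symbols alone. The rows of LRP5L, a partial copy of LRP5, were kept apart by their own symbol, but LRP5 can share signal with it.

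The cells were NTera2/D1, a line from a human embryonal carcinoma, and their RNA was measured on Affymetrix exon arrays. The 4 groups were cells with siRNF20 and 10 µM RA, cells with siRNF20 and DMSO, cells with siLacZ and 10 µM RA, and cells with siLacZ and DMSO. RA or DMSO, the solvent, was given for 72 h. An siRNA is a short double-stranded RNA that depletes its target's mRNA, here RNF20, an E3 ligase for a single ubiquitin on histone H2B, or the bacterial gene LacZ as a control that these cells lack. All groups thus carried an siRNA and came from 1 cell line. Each group held 2 arrays, numbered GF117 and GF120 in the labels, which call them biological duplicates.

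A gene's value in an array is the median, over its array rows that were not dim, of the log2 intensity, so that a difference of 1 is 2-fold. The median intensity was 17.2 on 7 arrays and 18.4 on the GF117 array of RA-treated siLacZ cells. That array stood apart, since its gene values correlated with those of the others at Pearson r between 0.135 and 0.239, against 0.908 to 0.975 among the other 7. Over the 52 genes alone these ranges were 0.265 to 0.377 and 0.800 to 0.973. The array was left out, so that RA-treated siLacZ cells are represented by their GF120 array, whose spread is taken to be that of the other groups, and values with all 8 arrays are given further on for the genes called. With 8 arrays none of the 52 genes passed the test in any of the comparisons below. The difference then had the other sign for 20 of the 52 genes for RA in siLacZ cells and for 25 of the 52 for siRNF20 in RA, the comparisons that use this group. The number of arrays limits the precision throughout.

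The knockdown target was lower in the siRNF20 arrays. RNF20 read 6.27 and 5.89 in RA-treated siRNF20 cells, against 8.10 in RA-treated siLacZ cells, and 6.48 and 5.98 in DMSO-treated siRNF20 cells, against 8.24 and 8.09 in DMSO-treated siLacZ cells. The differences were -2.02 (adjusted p = 0.110) in RA and -1.94 (adjusted p = 0.237) in DMSO. The array left out read 6.08, within the range of the siRNF20 arrays. Each adjusted p comes from limma's two-sided test in a model of all 18732 genes, adjusted by Benjamini-Hochberg over these genes, and a gene was called below 0.05.

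The state of the cells moved with RA. Of 12 markers of embryonal carcinoma and pluripotent cells, all measured, 6 were lower with RA in each siRNA background, with a difference for NANOG of -2.76 in siRNF20 cells and -3.82 in siLacZ cells. Not all of the 12 fell. In siRNF20 cells SOX2 and LIN28A, neither called there, read higher with RA. SOX2 read 10.69 and 10.73 with RA, against 10.49 and 10.49 with DMSO, and LIN28A 11.85 and 11.68, against 11.50 and 11.50. The summed log2 level of the 12 markers was 102.1 to 102.6 in RA-treated and 113.3 to 114.1 in DMSO-treated siRNF20 cells. In siLacZ cells it was 97.8 in RA-treated and 111.9 to 112.6 in DMSO-treated cells. Of 10 neural markers 9 were measured, with summed levels of 59.9 to 60.1 in RA-treated and 52.0 to 53.9 in DMSO-treated siRNF20 cells, and 60.2 in RA-treated and 52.5 to 53.1 in DMSO-treated siLacZ cells. PAX6, NES, DCX and MAP2 rose with RA in siRNF20 cells, and PAX6 and DCX in siLacZ cells. The other neural markers were not called in the respective background. Of these, ELAVL3 read lower with RA in both. It read 4.94 and 4.82 with RA, against 5.47 and 5.15 with DMSO, in siRNF20 cells, and 4.99, against 5.47 and 5.66, in siLacZ cells. Among markers of cells not named in the labels, CDH5, an endothelial cadherin, rose by 2.53 in siRNF20 and 2.87 in siLacZ cells, THY1 fell in both and COL1A1 rose in siLacZ cells, while none of the 5 blood markers measured or the 6 endoderm markers was called. Of the 6 endothelial markers CDH5 alone was called, and their median difference was -0.08 in siRNF20 cells and 0.02 in siLacZ cells. With CDH5 included, they summed to 35.3 to 36.6 in RA-treated and 34.2 to 34.4 in DMSO-treated siRNF20 cells. In siLacZ cells they summed to 36.2 in RA-treated and 33.1 to 34.0 in DMSO-treated cells. The 7 of 8 fibroblast markers measured summed to 41.1 to 41.6 and 42.9 to 43.3 in these siRNF20 cells, and to 42.7 and 42.8 to 43.8 in these siLacZ cells. In RNA from whole cultures, fewer cells of a type and less RNA per cell cannot be told apart, and the part of the changing mix of cell states in the results below was not tested.

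RA changed 5 frizzled receptors, 1 ligand and 2 secreted inhibitors. In siRNF20 cells 8 of the 52 genes were called, 15.4%, against 3.92% of all genes tested. WNT2B, FZD4, FZD7, FZD10 and FZD6 rose, and FZD5, SFRP2 and SFRP1 fell. In siLacZ cells 4 of the 52 were called, 7.69%, against 3.91% of all genes, and these 4 were among the 8: WNT2B, FZD4 and FZD6 rose and FZD5 fell. None of the 52 was called for siRNF20 against siLacZ. The plot of the called genes by array shows the values behind these calls.

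**Figure D1:**
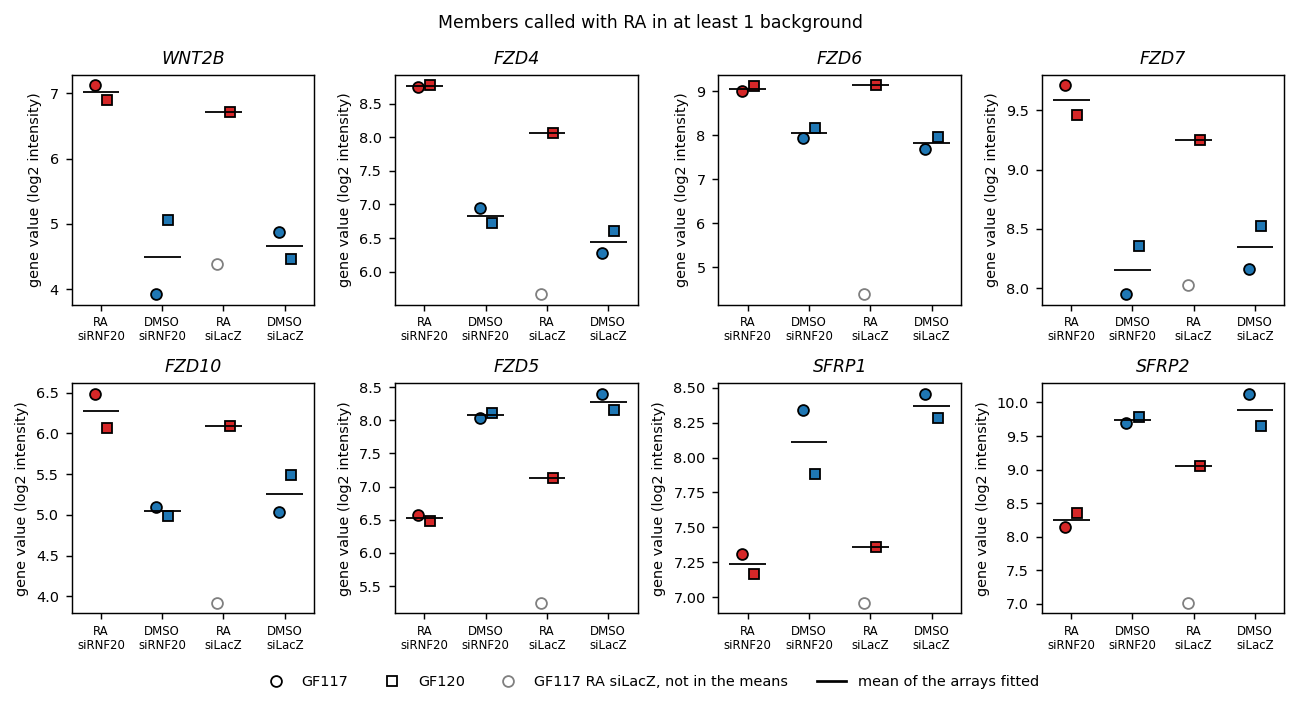
Gene value (log2 intensity, vertical axis) of the 8 genes called with RA, 1 panel a gene, in each array of the 4 groups, RA left of DMSO in each siRNA background. Filled circles are GF117 and squares GF120 arrays, the open grey circle is the GF117 array of RA-treated siLacZ cells, which was left out, and the horizontal bars are group means over the arrays kept. The RA arrays kept lie above the DMSO arrays for WNT2B, FZD4, FZD6, FZD7 and FZD10 and below them for FZD5, SFRP1 and SFRP2.

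Among the 19 WNT ligands, WNT2B was the one that passed. It read 7.13 and 6.90 in RA-treated siRNF20 cells, against 3.92 and 5.06 in DMSO-treated siRNF20 cells, and 6.72 in RA-treated siLacZ cells, against 4.87 and 4.47 in DMSO-treated siLacZ cells. All 3 RA arrays kept were higher than all 4 DMSO arrays. The difference was 2.52 (SE 0.36, adjusted p = 0.0040) in siRNF20 cells and 2.05 (SE 0.44, adjusted p = 0.0343) in siLacZ cells. The lowest DMSO value was under the limit of 3.97 at or below which a row counted as dim, so no fold is given.

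The 9 rows kept for WNT2B, out of 14, did not move alike. In the order of their row numbers, the first 4 differed by -0.20 to 0.85 between RA and DMSO in siRNF20 cells and by -0.54 to 0.70 in siLacZ cells. The other 5 rows were all higher with RA, by 2.69 to 3.95 in siRNF20 cells and by 2.02 to 3.90 in siLacZ cells. Of the 9 rows, 3 had a mean over the DMSO arrays at or below the dim-row limit and were kept through their RA values, against 14 of the 582 rows of all 52 genes. All 3 were among the 5 rows that rose, where the lowest DMSO mean was 3.14, against 4.66 for the first 4. The filter alone required a higher RA mean of these 3 rows, and they enter the median behind the WNT2B value. Rows of one gene come from the same arrays and are not replicates, the split was chosen after the values were seen, and the sources used here do not state how row numbers relate to exons. A stricter filter on dim rows left a difference of 0.86 in siRNF20 cells (adjusted p = 0.0726, against 0.0003 to 0.0726 over 15 settings) and 0.76 in siLacZ cells (adjusted p = 0.194, against 0.0056 to 0.194 over 14).

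RefSeq lists more than 1 start for WNT2B. The 250 bases upstream of each start listed for WNT2B, FZD4 and FZD5 are shown, those of FZD4 and FZD5 further on, because these 3 genes had the largest summed differences over both siRNA backgrounds among the 4 called in both. They are on GRCh38.p14, read 5′ to 3′ on the gene's strand, and capitals mark GGGCGG, the core of the GC box, on either strand. For WNT2B, on the plus strand, the windows lie at chr1:112466291-112466540 and chr1:112508715-112508964.
WNT2B, first start: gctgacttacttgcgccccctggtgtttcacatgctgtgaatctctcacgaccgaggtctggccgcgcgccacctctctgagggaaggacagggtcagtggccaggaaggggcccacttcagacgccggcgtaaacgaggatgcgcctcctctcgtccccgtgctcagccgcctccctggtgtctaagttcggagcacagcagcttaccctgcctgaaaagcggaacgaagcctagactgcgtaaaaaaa
WNT2B, second start: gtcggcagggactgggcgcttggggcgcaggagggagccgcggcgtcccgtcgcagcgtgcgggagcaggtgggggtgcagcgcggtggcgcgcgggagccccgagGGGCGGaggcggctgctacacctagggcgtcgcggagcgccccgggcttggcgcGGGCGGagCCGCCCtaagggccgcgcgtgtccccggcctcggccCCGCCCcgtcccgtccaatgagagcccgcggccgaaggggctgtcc
The first WNT2B window has a GC content of 60.4% and no match, and the second has 80.0% and 4 matches.

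The frizzled receptors span the membrane 7 times and take up WNT through an extracellular cysteine-rich domain. Of the 10 genes, 4 rose and 1 fell with RA in siRNF20 cells, and 2 rose and 1 fell in siLacZ cells. FZD4, which also serves as receptor for the non-WNT ligand norrin, read 8.75 and 8.78 in RA-treated siRNF20 cells, against 6.94 and 6.72 in DMSO-treated siRNF20 cells. In siLacZ cells it read 8.06 with RA, against 6.28 and 6.61 with DMSO. The RA arrays were all above the DMSO arrays, and the differences were 1.93 (SE 0.20, adjusted p = 0.0006) and 1.62 (SE 0.24, adjusted p = 0.0058). All 20 of its rows kept were higher with RA in both backgrounds, the least by 0.003 in siLacZ cells. Of these rows, 2 had a DMSO mean at or below the dim-row limit and were kept through their RA values. The filter alone required a higher RA mean of those 2.

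FZD5, a receptor that acts through β-catenin, went the other way. It read 6.58 and 6.48 in RA-treated siRNF20 cells, against 8.04 and 8.11 in DMSO-treated siRNF20 cells, and 7.12 in RA-treated siLacZ cells, against 8.40 and 8.16 in DMSO-treated siLacZ cells. The 3 RA arrays were all below the 4 DMSO arrays. The difference was -1.54 (SE 0.18, adjusted p = 0.0014) in siRNF20 cells and -1.15 (SE 0.22, adjusted p = 0.0216) in siLacZ cells, and 15 of its 16 rows were lower with RA in both. The windows upstream of FZD4 at chr11:86955396-86955645 and of FZD5 at chr2:207769907-207770156 are both on the minus strand.
FZD4: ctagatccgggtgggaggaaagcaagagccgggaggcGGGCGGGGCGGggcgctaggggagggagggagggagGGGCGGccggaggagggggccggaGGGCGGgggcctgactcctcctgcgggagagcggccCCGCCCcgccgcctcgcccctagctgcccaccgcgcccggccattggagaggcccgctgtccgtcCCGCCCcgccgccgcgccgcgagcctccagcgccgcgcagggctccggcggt
FZD5: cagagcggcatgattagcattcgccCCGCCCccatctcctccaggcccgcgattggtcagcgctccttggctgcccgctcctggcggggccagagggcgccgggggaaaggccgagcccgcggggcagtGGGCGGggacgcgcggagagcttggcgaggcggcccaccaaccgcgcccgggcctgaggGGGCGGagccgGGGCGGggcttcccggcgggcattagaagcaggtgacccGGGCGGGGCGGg
The FZD4 window has a GC content of 80.8% and the FZD5 window 76.8%, with 6 matches each, and where 2 matches adjoin they share a letter.

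FZD6, which is known for its part in planar polarity, read 9.01 and 9.12 in RA-treated siRNF20 cells, against 7.93 and 8.18 in DMSO-treated siRNF20 cells. In siLacZ cells it read 9.15 with RA, against 7.70 and 7.96 with DMSO. Again no RA array overlapped the DMSO arrays, with differences of 1.01 (SE 0.18, adjusted p = 0.0118) in siRNF20 cells and 1.32 (SE 0.21, adjusted p = 0.0093) in siLacZ cells. With all 8 arrays FZD6 had a difference of -1.06 in siLacZ cells, since the array left out read 4.39.

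FZD7, a receptor known for its high level in pluripotent stem cells, read 9.71 and 9.46 in RA-treated siRNF20 cells, against 7.95 and 8.35 in DMSO-treated siRNF20 cells. It read 9.25 in RA-treated siLacZ cells, against 8.16 and 8.53 in DMSO-treated siLacZ cells. Its arrays did not overlap between RA and DMSO, and all 8 of its rows were higher with RA in both backgrounds. The difference was 1.44 (SE 0.20, adjusted p = 0.0035) in siRNF20 cells and 0.91 (SE 0.25, adjusted p = 0.0856) in siLacZ cells, where it did not pass.

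FZD10, which is expressed in the dorsal neural tube of mouse and chick embryos, read 6.49 and 6.07 in RA-treated siRNF20 cells, against 5.10 and 4.99 in DMSO-treated siRNF20 cells. It read 6.09 in RA-treated siLacZ cells, against 5.03 and 5.49 in DMSO-treated siLacZ cells. The RA arrays were again all above the DMSO arrays. The difference was 1.23 (SE 0.26, adjusted p = 0.0338) in siRNF20 cells and 0.83 (SE 0.32, adjusted p = 0.238) in siLacZ cells. Of its 9 rows kept, 1 had a DMSO mean at or below the dim-row limit and was kept through its RA values. The filter alone required a higher RA mean of that row. Under the stricter filter on dim rows FZD10 was not called in siRNF20 cells. The other 5 frizzled genes, FZD1, FZD2, FZD3, FZD8 and FZD9, had differences between 0.03 and 0.31 in siRNF20 cells and between -0.07 and 0.59 in siLacZ cells, none of them called.

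The secreted inhibitors that passed were both of the SFRP family, whose proteins carry a frizzled-like cysteine-rich domain. SFRP2 read 8.14 and 8.35 in RA-treated siRNF20 cells, against 9.69 and 9.78 in DMSO-treated siRNF20 cells, and 9.06 in RA-treated siLacZ cells, against 10.13 and 9.64 in DMSO-treated siLacZ cells. The RA arrays were the lower ones in both backgrounds. The difference was -1.50 (SE 0.18, adjusted p = 0.0017) in siRNF20 cells and -0.83 (SE 0.22, adjusted p = 0.0850) in siLacZ cells.

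SFRP1 read 7.31 and 7.17 in RA-treated siRNF20 cells, against 8.34 and 7.88 in DMSO-treated siRNF20 cells. It read 7.36 in RA-treated siLacZ cells, against 8.46 and 8.28 in DMSO-treated siLacZ cells, and the groups did not overlap. The difference was -0.87 (SE 0.20, adjusted p = 0.0477) in siRNF20 cells and -1.01 (SE 0.25, adjusted p = 0.0592) in siLacZ cells, on either side of the threshold with values that lie close together. The other 8 genes of this class, SFRP4, SFRP5, DKK1 to DKK4, WIF1 and KREMEN1 (a receptor for DKK proteins), had differences between -0.19 and 0.97 in siRNF20 cells and between -0.45 and 0.92 in siLacZ cells, none called. SFRP4, at the upper end, had 3 of 16 rows kept and read 5.14 and 6.20 in RA-treated siRNF20 cells, against 5.0 and 4.40 in DMSO-treated siRNF20 cells, and 5.70 in RA-treated siLacZ cells, against 4.91 and 4.64 in DMSO-treated siLacZ cells, where the difference was -0.66 under a stricter filter on dim rows.

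How firm these calls were differed from gene to gene. In siRNF20 cells FZD4, FZD5, FZD7 and SFRP2 were called under all 15 other settings that kept the same 7 arrays or fewer and gave a test, FZD6 and WNT2B under 14, FZD10 under 10 and SFRP1 under 5. FZD6 missed the threshold without the GF117 array of DMSO-treated siRNF20 cells (0.89, adjusted p = 0.130, against 0.0004 to 0.130 over the 15). The adjusted p ranged from 0.0031 to 0.410 for SFRP1 and from 0.0065 to 0.160 for FZD10, each highest without an array of DMSO-treated siRNF20 cells. In siLacZ cells none of the 4 calls was kept without the GF117 array of DMSO-treated siLacZ cells, where the adjusted p was 0.0504 for FZD4, 0.0615 for FZD6, 0.0887 for WNT2B and 0.131 for FZD5, with differences of 1.47, 1.19, 2.25 and -1.03. The lowest adjusted p over the 14 settings there was 0.0008 for FZD4, 0.0010 for FZD6, 0.0056 for WNT2B and 0.0043 for FZD5. Of these 14 settings, 13 kept the call of FZD4, 13 that of FZD6, 10 that of FZD5 and 9 that of WNT2B. WNT2B also lost it with no filter on dim rows, with the stricter filter and without the intensity trend. FZD5 also lost it with means over rows and without the trend. Both lost it without the GF120 array of DMSO-treated siLacZ cells. With all 8 arrays, where none was called, the differences in siLacZ cells were 0.42 for FZD4, -1.06 for FZD6, 0.88 for WNT2B and -2.09 for FZD5. Those of FZD7, FZD10, SFRP1 and SFRP2 were 0.29, -0.26, -1.21 and -1.85. With the GF number as a block, which the labels do not say pairs the arrays, 11 of the 52 were called in siRNF20 cells, with CTNNB1, WNT5A and WNT9B added, and 9 in siLacZ cells, with FZD7, SFRP1, SFRP2, WNT5A and WNT7B added.

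**Figure D2:**
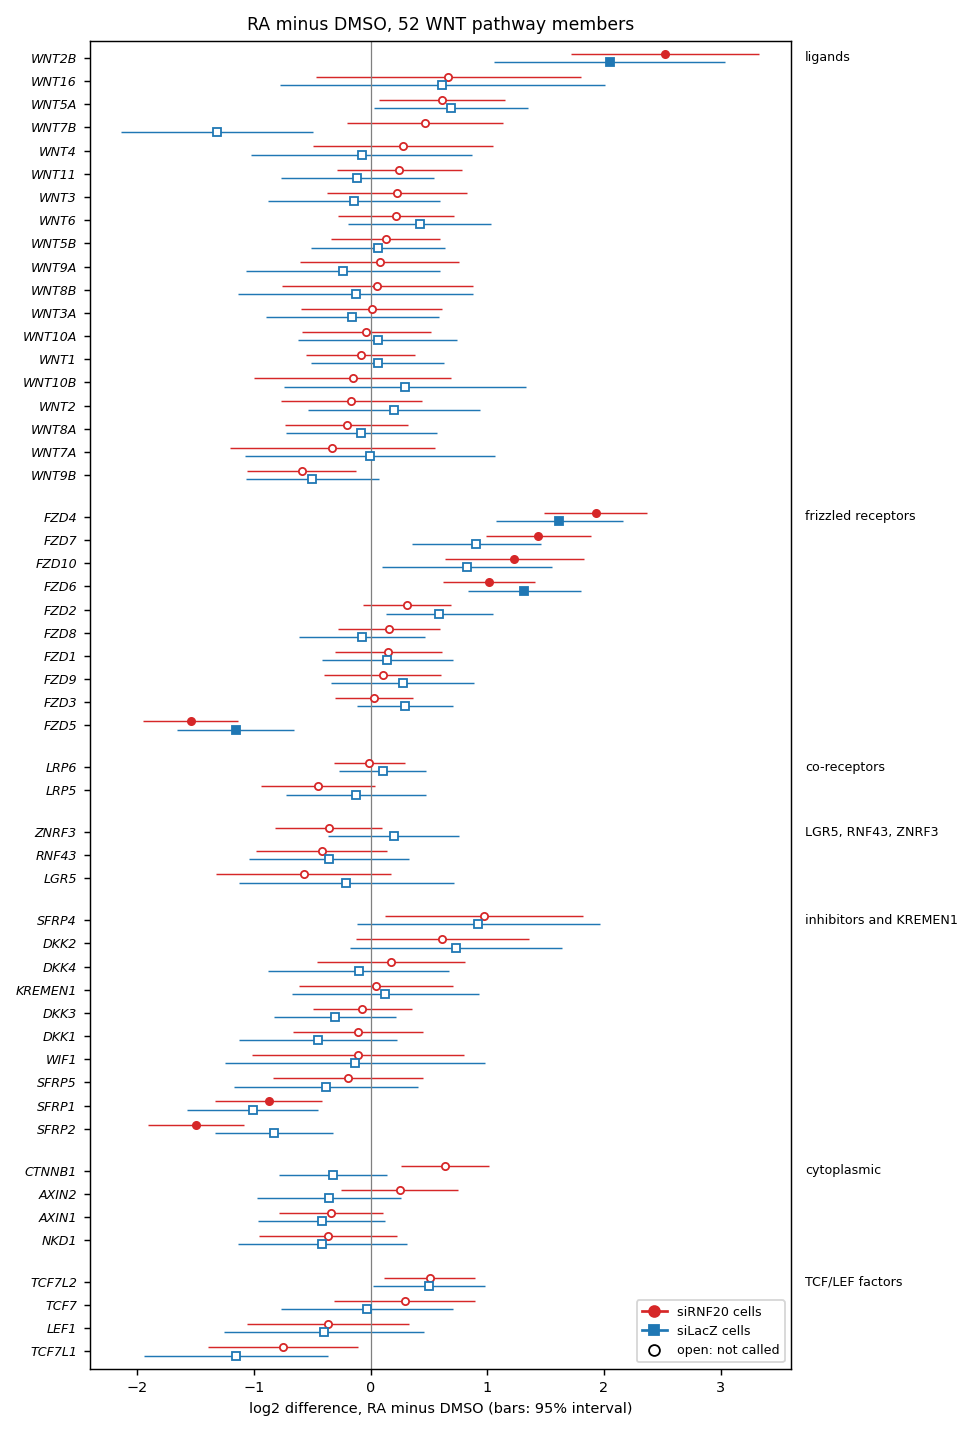
Difference between RA and DMSO (log2, horizontal axis) of all 52 genes, ordered by class, in siRNF20 cells (circles) and siLacZ cells (squares), with 95% intervals from limma. Filled symbols are called, 8 in siRNF20 cells and 4 in siLacZ cells, and most of them are frizzled receptors.

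The remaining ligands showed smaller differences. In siRNF20 cells the other 18 lay between -0.59 (WNT9B) and 0.67 (WNT16), and in siLacZ cells between -1.31 (WNT7B) and 0.69 (WNT5A). WNT5A, the main ligand of the pathway branches that do not use β-catenin, read 8.01 and 7.61 in RA-treated siRNF20 cells, against 7.18 and 7.21 in DMSO-treated siRNF20 cells. In siLacZ cells it read 7.92 with RA, against 7.53 and 6.93 with DMSO. Its differences of 0.62 (adjusted p = 0.247) and 0.69 (adjusted p = 0.284) did not pass without a block, and with the GF number as a block they did (adjusted p = 0.0464 and 0.0372). The groups did not overlap, and 16 of 16 rows were higher with RA in siRNF20 cells and 14 of 16 in siLacZ cells. With all 8 arrays the siLacZ difference was -0.65.

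WNT7B was measured by 1 row kept of 5. It read 5.34 and 6.14 in RA-treated siRNF20 cells, against 5.12 and 5.43 in DMSO-treated siRNF20 cells, groups that overlap. It read 4.83 in RA-treated siLacZ cells, against 6.21 and 6.08 in DMSO-treated siLacZ cells, so that the single RA array was the lowest. Neither difference was called, 0.47 (adjusted p = 0.550) in siRNF20 cells and -1.31 (adjusted p = 0.0925) in siLacZ cells.

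None of the 13 co-receptors, receptor-turnover genes and cytoplasmic and nuclear components was called with RA. The co-receptors LRP5 and LRP6 had differences of -0.45 and -0.01 in siRNF20 cells and of -0.12 and 0.10 in siLacZ cells. For LRP6 the 95% intervals ran from -0.32 to 0.29 and from -0.27 to 0.48, so that a difference of 1 in either direction lies outside both. The siLacZ interval rests on the single RA array kept. The array left out read 5.86, against 9.51 and 9.65 in DMSO-treated siLacZ cells, and with all 8 arrays the sign there changed. LGR5, a receptor for R-spondins, and the ligases RNF43 and ZNRF3 lay between -0.57 and -0.36 in siRNF20 cells and between -0.36 and 0.20 in siLacZ cells. AXIN1 had -0.34 and -0.42, and NKD1, an inhibitor that binds Dishevelled, -0.36 and -0.41. AXIN2, a gene that WNT signalling itself is known to induce, had differences of 0.25 in siRNF20 cells and -0.36 in siLacZ cells. The sign in siLacZ cells depended on how rows were combined. There 7 of its 14 rows were higher with RA and 7 lower, with a mean over rows of 0.11.

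Of the nuclear factors, TCF7L1, which is known from mouse embryonic stem cells as a repressor of WNT targets, was at the lower end. It read 6.39 and 6.71 in RA-treated siRNF20 cells, against 7.34 and 7.26 in DMSO-treated siRNF20 cells, and 6.53 in RA-treated siLacZ cells, against 8.14 and 7.23 in DMSO-treated siLacZ cells. The RA arrays were all lower, as were all 22 rows in both backgrounds, but the differences of -0.75 (adjusted p = 0.234) and -1.15 (adjusted p = 0.123) did not pass. TCF7L2 had differences of 0.51 (adjusted p = 0.180) and 0.50 (adjusted p = 0.283), with 21 of 21 and 19 of 21 rows higher with RA, and -0.60 in siLacZ cells with all 8 arrays. Of the 21 TCF7L2 rows, 1 had a DMSO mean at or below the dim-row limit and was kept through its RA values. LEF1 had -0.36 and -0.40, and TCF7 had 0.29 and -0.03.

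Read as a group, the 52 genes were centred near 0. Their median difference was 0.05 in siRNF20 cells and -0.07 in siLacZ cells, against -0.03 and -0.05 over all genes. The RA and DMSO arrays did not overlap for 30 of the 52 genes in siRNF20 cells, 57.7% against 42.9% of all genes. In siLacZ cells they did not overlap for 37 of the 52, 71.2% against 74.0% of all genes, where a single RA array is set against 2. The RA differences of the 52 genes in the 2 backgrounds, which share no array, had a Pearson r of 0.829 and a Spearman rho of 0.680 across genes, against 0.699 and 0.513 over all genes, and 34 of 52 had the same sign, 65.4% against 67.3%. Genes measured in the same arrays are not independent replicates, so these are descriptions.

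In limma, siRNF20 against siLacZ passed for none of the 52 genes, with or without RA. In RA 2 of 18732 genes were called, 0.0107%, and in DMSO none, 0.0%. At an unadjusted p below 0.05 there were 7 of the 52 genes in RA, 13.5% against 7.93% of all genes, and 2 in DMSO, 3.85% against 2.77%. All 52 differences lay within 1 in either direction in both comparisons, and for 27 of the 52 in RA and 39 in DMSO the whole 95% interval did.

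In RA the highest differences were those of WNT7B (0.91), WNT8B (0.79), CTNNB1 (0.78) and WNT9B (0.78), and the lowest those of SFRP2 (-0.81), WNT10B (-0.70), ZNRF3 (-0.59) and FZD5 (-0.59). WNT9B read 6.40 and 6.67 in RA-treated siRNF20 cells, against 5.75 in RA-treated siLacZ cells, and WNT8B read 4.63 and 5.31, against 4.18. ZNRF3 read 6.49 and 6.20 in RA-treated siRNF20 cells, against 6.94 in RA-treated siLacZ cells, and WNT10B read 4.08 and 5.20, against 5.34. Both siRNF20 arrays lay on the same side of the single siLacZ array for each of these 8 genes, which were picked as the extremes, and for 36 of the 52, 69.2% against 66.9% of all genes. For 6 of the 8 the array left out lay on the other side of the siRNF20 arrays' mean, with 7.97 for WNT9B, 5.19 for WNT8B, 6.37 for WNT7B, 5.64 for ZNRF3, 7.01 for SFRP2 and 5.25 for FZD5. Several of these differences turned under other settings. With all 8 arrays SFRP2, ZNRF3, FZD5, WNT9B and WNT8B had 0.21, 0.056, 0.35, -0.42 and -0.42. Under the stricter filter on dim rows WNT8B had -0.38 and WNT10B 0.43, which also had 0.44 without a filter and 0.17 with means over rows. WNT7B had -0.033 without the GF120 array of DMSO-treated siLacZ cells.

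In DMSO the highest differences were those of WNT9B (0.87), WNT8B (0.61), WNT7A (0.44) and LGR5 (0.41), and the lowest those of WNT7B (-0.87), WNT4 (-0.50), RNF43 (-0.47) and TCF7L1 (-0.38), each with an adjusted p of 1.00. WNT9B read 7.03 and 7.22 in DMSO-treated siRNF20 cells, against 6.20 and 6.30 in DMSO-treated siLacZ cells, groups that did not overlap. RNF43 read 5.59 and 5.23 in DMSO-treated siRNF20 cells, against 6.0 and 5.77 in DMSO-treated siLacZ cells, with no overlap either. The same held for WNT7A, WNT8B and WNT7B, while the groups overlapped for LGR5, WNT4 and TCF7L1. Over all 52 genes they did not overlap for 19, 36.5% against 30.1% of all genes. The sign turned for WNT8B under the stricter filter on dim rows (-0.24), for WNT7B without a filter (0.18) and without the GF120 array of RA-treated siRNF20 cells (0.0031), and for TCF7L1 without the GF117 array of DMSO-treated siLacZ cells (0.069). WNT7A read 5.67 and 6.25 in DMSO-treated siRNF20 cells, against 5.62 and 5.42 in DMSO-treated siLacZ cells, and WNT8B read 4.85 and 4.98, against 3.95 and 4.67. LGR5 read 5.13 and 4.79 in DMSO-treated siRNF20 cells, against 4.82 and 4.28 in DMSO-treated siLacZ cells, and WNT4 read 4.88 and 4.54, against 5.67 and 4.74.

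**Figure D3:**
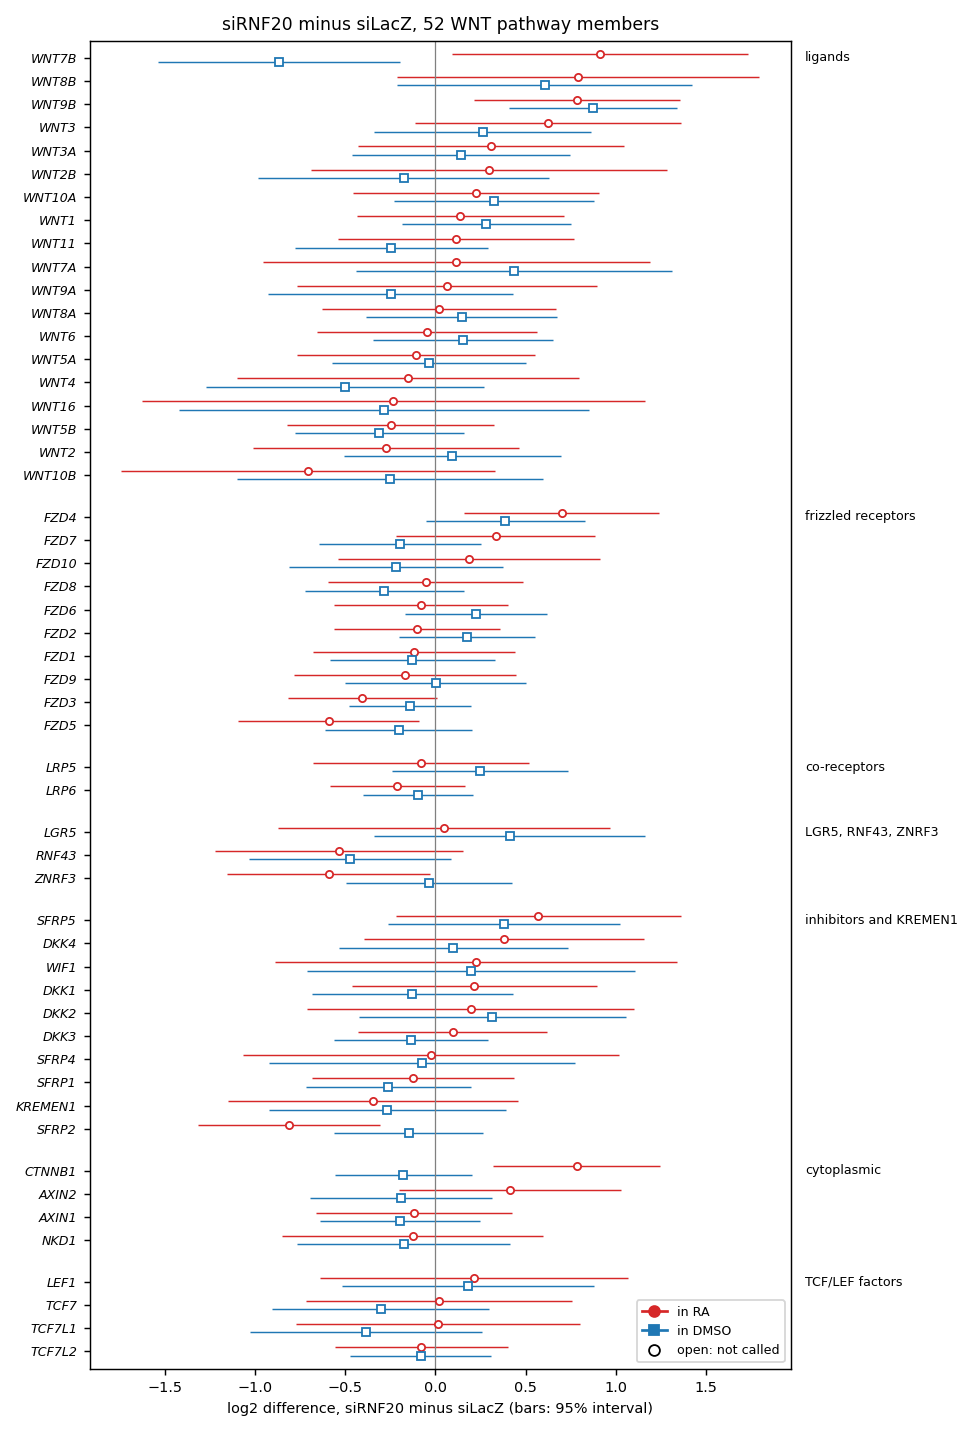
Difference between siRNF20 and siLacZ (log2, horizontal axis) of all 52 genes, ordered by class, in RA (circles) and in DMSO (squares), with 95% intervals from limma. All symbols are open because none was called, and all differences lie between -1 and 1.

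CTNNB1, which encodes β-catenin, had the lowest adjusted p of the 52 genes for siRNF20 in RA. It read 10.69 and 10.28 in RA-treated siRNF20 cells, against 9.70 in RA-treated siLacZ cells (0.78, SE 0.21, adjusted p = 0.326). In DMSO it read 9.98 and 9.72 in siRNF20 cells, against 10.12 and 9.93 in siLacZ cells, which overlap. With RA it differed by 0.64 (adjusted p = 0.0758) from DMSO in siRNF20 cells and by -0.32 (adjusted p = 0.513) in siLacZ cells.

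The 26 rows kept for CTNNB1 were all higher with RA in siRNF20 cells, by 0.08 to 1.11. In siLacZ cells 17 were higher and 9 lower. The first 15 rows had a median difference of 0.31 and the other 11 a median of -0.58, a split chosen after the values were seen. The plot of differences by array row shows this beside the rows of WNT2B, FZD4 and FZD5. The difference between siRNF20 and siLacZ in RA also depended on the rows. Over the first 15 rows of CTNNB1 the median was 11.23 and 10.997 in RA-treated siRNF20 cells, against 11.54 in RA-treated siLacZ cells. Over the other 11 rows it was 10.38 and 10.26, against 9.32. The higher value of CTNNB1 with siRNF20 in RA was thus not shared by the first 15 rows as a set.

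**Figure D4:**
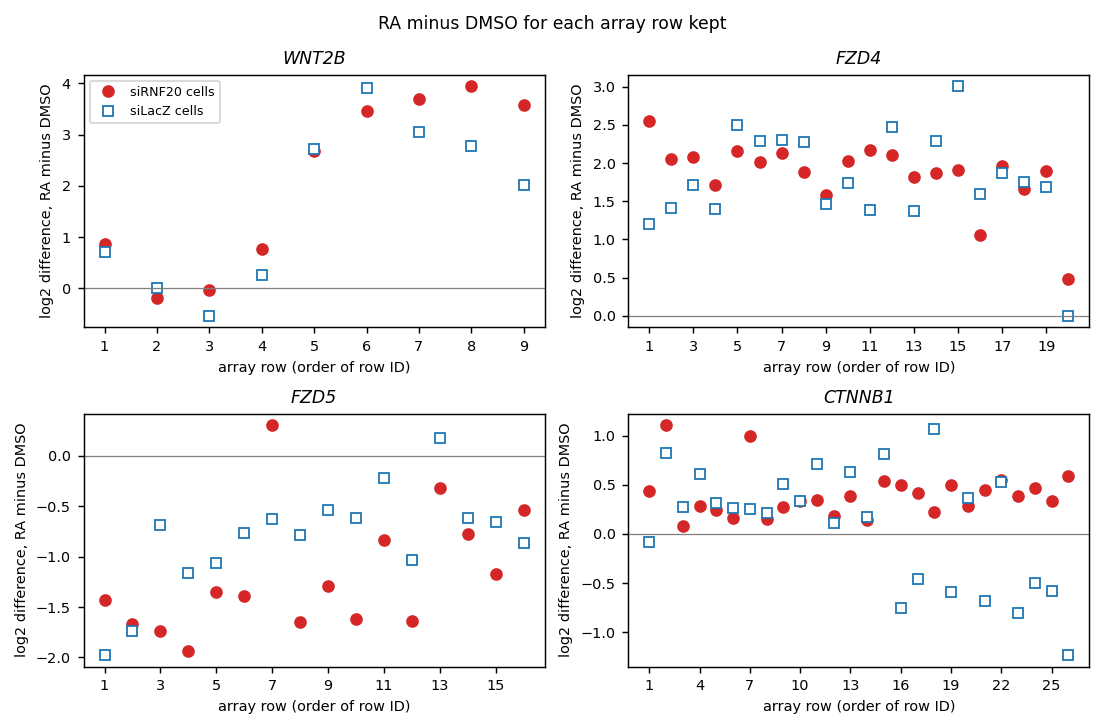
Difference between RA and DMSO (log2, vertical axis) of each array row kept, in the order of row numbers (horizontal axis), for WNT2B, FZD4, FZD5 and CTNNB1 in siRNF20 cells (circles) and siLacZ cells (squares). All 20 rows of FZD4 lie above 0, the lowest at 0.003, and 15 of 16 of FZD5 below 0. Of the rows shown, 2 of FZD4 and 3 of WNT2B were dim under DMSO and kept through their RA values. The first 4 rows of WNT2B stay below 1 and the other 5 above 2, and the later rows of CTNNB1 lie mostly below 0 in siLacZ cells and above 0 in siRNF20 cells.

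Whether the response to RA itself differed with siRNF20 was tested as the difference between the 2 responses, siRNF20 minus siLacZ. In limma it was called for none of the 18732 genes, 0.0%, and at an unadjusted p below 0.05 there were 3 of the 52 genes, 5.77% against 3.93% of all genes. For WNT2B it was 0.47 (95% interval -0.80 to 1.75), for FZD4 0.31 (-0.39 to 1.01), for FZD5 -0.39 (-1.04 to 0.26) and for FZD6 -0.31 (-0.93 to 0.32). FZD7 had 0.53 (-0.18 to 1.24), FZD10 0.40 (-0.54 to 1.34) and SFRP1 0.14 (-0.59 to 0.86). SFRP2 had -0.66 (-1.32 to -0.01), an unadjusted interval that leaves out 0. These 4 genes were called in siRNF20 cells alone, and for none of them did the difference between the backgrounds pass after adjustment, with an adjusted p of 0.999 for each. These intervals also allow differences between the responses of up to 1.75 for WNT2B.

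Other genes of the pathway were counted in 5 lists. Of genes for WNT secretion, R-spondins and extracellular modulators, 18 of 19 were measured, and 3 rose and none fell with RA in siRNF20 cells, while 2 rose and 1 fell in siLacZ cells, 16.7% in each against 3.92% and 3.91% of all genes. WLS, the carrier that takes WNT to the cell surface, rose by 2.67 (SE 0.46, adjusted p = 0.0110) in siRNF20 cells and by 2.91 (SE 0.56, adjusted p = 0.0215) in siLacZ cells. It read 11.14 and 11.30 in RA-treated siRNF20 cells, against 7.83 and 9.26 in DMSO-treated siRNF20 cells, and 11.47 in RA-treated siLacZ cells, against 7.92 and 9.19 in DMSO-treated siLacZ cells. All RA arrays were above all DMSO arrays, and the GF117 arrays were the lower ones under DMSO. FRZB, a further secreted frizzled-related protein, rose by 1.58 and 2.28, in contrast to SFRP1 and SFRP2. DRAXIN, an inhibitor that binds LRP6, rose by 0.76 in siRNF20 cells, and APCDD1, a membrane inhibitor, fell to 4.94 in RA-treated siLacZ cells, against 6.48 and 6.46 in DMSO-treated siLacZ cells.

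Of co-receptors and planar polarity genes 16 of 17 were measured, with 1 higher and 2 lower in each background, 18.8% of them. ROR1, a receptor kinase for WNT5A, had a difference of -1.29 in siRNF20 cells and -1.70 in siLacZ cells, and PRICKLE1, a planar polarity protein, -1.14 and -1.37. The cadherins CELSR2, with 0.97 in siRNF20 cells, and CELSR1, with 1.18 in siLacZ cells, rose. Of 27 cytoplasmic genes, all measured, DACT1, which binds Dishevelled, rose by 3.47 in siRNF20 cells and by 3.61 in siLacZ cells. It read 8.74 and 8.75 in RA-treated siRNF20 cells, against 5.43 and 5.12 in DMSO-treated siRNF20 cells. FRAT2, an inhibitor of GSK3, was the other one called, with -1.41 in siLacZ cells. This list had 3.70% called in siRNF20 cells, near the share of all genes, and 7.41% in siLacZ cells.

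Of 20 nuclear partners of β-catenin, all measured, the co-repressor TLE4 rose by 1.23 in siRNF20 cells and 1.46 in siLacZ cells, where it had -0.49 with all 8 arrays. Its relatives TLE1 and TLE5 had -0.83 and -0.82 in siRNF20 cells, each called there. That list had 3 of 20 genes called in siRNF20 cells and 1 of 20, 5.0%, in siLacZ cells. Of 26 genes known as WNT targets 25 were measured, and 3 fell in both backgrounds. In siRNF20 and siLacZ cells the differences were -2.29 and -2.30 for CD44, -2.06 and -2.67 for MYC, and -1.47 and -1.81 for CCND1 (cyclin D1). GBX2, a neural patterning gene, rose by 1.20 in siRNF20 cells, so that 4 of 25 genes were called in siRNF20 cells and 3 of 25, 12.0%, in siLacZ cells. The list medians were -0.14 and -0.31 for these targets, against -0.03 and -0.05 over all genes. No gene of the 5 lists was called for siRNF20 against siLacZ in RA or in DMSO.

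The promoter windows were also searched for binding motifs. Of the 52 genes, 34 had 1 or more RefSeq windows of 250 bases upstream of a start, 41 windows in all, compared with 35116 windows of all genes, on both strands. TCAAAG, the core of the TCF/LEF element, was in 1 window of the 41 (DKK1), 2.44% against 11.2% of all. AGGTCA, which RA receptors bind, was in 3 windows (TCF7, WNT16 and TCF7L2), 7.32% against 12.1%, and its variant GGTTCA in none, against 7.16%. A direct repeat of either with 5 bases between the copies was in none, against 1 window each of all. GGGCGG, searched after these had given few matches, was in 31 of 41 windows, 75.6% against 42.6% of all, in windows with a median GC content of 68.8% against 58.0% of all. A match is letters in a window and says nothing about binding.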

How the data were processed

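The deposited values are linear intensities, 1 for each of 1384231 rows (probe sets) and 8 arrays. The authors' background correction, normalization and tools are not given in the sources used here. RNA was extracted with a column kit and biotin-labelled, per the labels' protocols. Of the rows, 369498 are in the platform annotation used, and the 354600 with 1 symbol were kept. Older symbols were updated through RefSeq for 2950 of 19497. Rows whose mean log2 intensity over the 7 arrays was at or below that of the median row (3.97) were dropped as dim, which kept 582 of the 754 rows of the 52 genes, between 1 and 33 a gene. A gene's value was the median log2 intensity of its rows, with no further normalization.

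limma 3.58.1 (R 4.3.3) fitted the 4 group means to all 18732 genes at once, with an intensity trend. Its adjusted p-values (Benjamini-Hochberg) were called below 0.05. With 2 arrays against 2, no exact permutation p can fall below 0.333, so no such test was run. The p-values rest on the spread within the groups that have 2 arrays in the fit, which limma moderates with that of other genes. RA-treated siLacZ cells, with 1 array, add no spread of their own. The fit was tested on simulated data, with each gene's SD from the model and independent arrays. A 2-fold change with RA was recovered for 62% of the changed genes in siRNF20 cells and for 33% in siLacZ cells. In siRNF20 cells 18 unchanged genes were called, beside 62 of 100 genes changed 2-fold and 100 of 100 changed 4-fold. In siLacZ cells 9 unchanged genes were called, beside 33 and 86. Tables and figures used Python 3.11.15, pandas 2.3.3 and matplotlib 3.10.9. Promoters are RefSeq's, on GRCh38.p14.

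The genes, lists and tests were chosen with earlier results of these data known. Values in every array are given for each gene called and for most of the 4 highest and 4 lowest of each comparison, and from the other pathway lists up to 4 called genes are named for each comparison. The other genes were named after their values were seen.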

Additional observations from a re-analysis of the deposited data

Results flagged for a closer look

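For 6 of the 52 genes the arrays moved in opposite directions under the 2 settings of a comparison, with no overlap between the groups under either, 11.5% against 10.5% of all genes. For CTNNB1 and ZNRF3 this was the response to RA. The RA response of CTNNB1 was 0.64 in siRNF20 cells and -0.32 in siLacZ cells, a difference of 0.96 (95% interval 0.36 to 1.56). That of ZNRF3 was -0.36 and 0.20, a difference of -0.56. Averaged over rows, the RA responses did not have opposite signs, with 0.40 and 0.09 for CTNNB1 and -0.29 and -0.0091 for ZNRF3. In siLacZ cells 17 of 26 CTNNB1 rows and 9 of 17 ZNRF3 rows were higher with RA. For WNT7B, AXIN2, DKK3 and FZD2 it was the effect of siRNF20. The effect on WNT7B, measured by 1 row, was 0.91 in RA and -0.87 in DMSO, a difference of 1.78 (95% interval 0.72 to 2.84). The same difference was 0.60 for AXIN2, 0.23 for DKK3 and -0.28 for FZD2. Averaged over rows, the RA response of AXIN2 was 0.34 in siRNF20 cells and 0.11 in siLacZ cells. As tested by limma over all genes, none of the 6 passed, with an adjusted p of 0.936 for CTNNB1 and WNT7B and 0.999 for the other 4. Each of them rests on the single RA-treated siLacZ array. The effect of siRNF20 on WNT7B was -0.033 in RA without the GF120 array of DMSO-treated siLacZ cells and 0.0031 in DMSO without the GF120 array of RA-treated siRNF20 cells, since the rows kept then changed.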

How the results depend on the processing

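Of the counts and medians recomputed under other settings, 183 stayed close to the value reported and 50 moved. Of the differences of single genes, 875 counted as unchanged, 127 lost the call, 13 gained one, 18 moved and 19 changed sign. A tested difference counted as unchanged if it kept its direction and side of the threshold. GF120 arrays alone gave no test. There a value within the gene's SD in the model counted as unchanged, whatever its sign if uncalled, and the 18 that moved were all such untested values. The cause of these changes was not tested. Without the GF120 array of RA-treated siLacZ cells that group is empty, and its comparisons gave no value. With all 8 arrays no gene was called for RA in either background or for the knockdown in RA (0 of the 52 and 0 of all genes), and the medians of the 52 were -0.15 for RA in siLacZ cells, 0.10 for siRNF20 in RA cells and 0.22 for the response difference. FZD6 and TLE4 then had -1.06 and -0.49 for RA in siLacZ cells. For siRNF20 in RA, SFRP2 then had 0.21, ZNRF3 0.056, FZD5 0.35, WNT9B -0.42 and WNT8B -0.42, and ZNRF3 had 0.091 for the difference of responses. The stricter filter on dim rows left 5 of the 52 called for RA in siRNF20 cells and medians of 0.15 there, 0.16 and -0.042 for siRNF20 in RA and in DMSO, and 0.12 for the difference of responses. It gave -0.66 for SFRP4 (RA in siLacZ cells), 0.43 for WNT10B and -0.38 for WNT8B (siRNF20 in RA), and -0.24 for WNT8B (siRNF20 in DMSO). No filter gave a median of -0.025 for RA in siRNF20 cells, -0.047 for SFRP4 (RA in siLacZ cells), 0.44 for WNT10B (siRNF20 in RA) and 0.18 for WNT7B (siRNF20 in DMSO). Means over rows gave medians of 0.11 and -0.034 for siRNF20 in RA and in DMSO, and 0.17 for WNT10B in RA. GF120 arrays alone gave medians of 0.14 and -0.0014 for RA in siRNF20 and siLacZ cells. Without the intensity trend 2 of the 52 and 456 of all genes were called for RA in siLacZ cells. For siRNF20 in RA, all genes called were 1 without the trend, 12 in a fit of the groups compared alone, and 0 with means, no filter, the stricter filter, an offset of 16 or quantile normalization. Leaving out 1 array at a time gave 5 to 8 of the 52 and 324 to 720 of all genes for RA in siRNF20 cells, 0 to 6 and 317 to 970 for RA in siLacZ cells, and 0 to 2 and 0 to 1 of all genes for siRNF20 in RA and in DMSO. The medians of the 52 then ran from -0.0022 to 0.14, from -0.074 to 0.017, from -0.040 to 0.017 and from -0.11 to -0.049 in that order, and from -0.050 to 0.11 for the difference of responses. The difference of WNT7B then ran from -0.033 to 1.53 (siRNF20 in RA) and from -0.87 to 0.0031 (siRNF20 in DMSO), and that of TCF7L1 from -0.84 to 0.069 (siRNF20 in DMSO).

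The GF numbers are not said to pair the arrays. Deviations from the group means correlated at 0.297, 0.301 and 0.364 between same-numbered arrays of the 3 groups other than RA-treated siLacZ cells. With that group they correlated at -0.081, -0.165 and -0.387. These last 3 values use its GF117 array, which was left out of the fit, so they cannot decide whether the numbers pair the arrays. With the number as a replicate block, 1959 of all genes were called for RA in siRNF20 cells, with 11 of the 52 (CTNNB1, WNT5A and WNT9B added), 1792 for RA in siLacZ cells, with 9 of the 52 (FZD7, SFRP1, SFRP2, WNT5A and WNT7B added), 232 for siRNF20 in RA, 1 for siRNF20 in DMSO and 4 for the difference of responses.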
